A study of Mus musculus with 6 samples.

Results

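The genes described here are 45 mouse genes of fatty acid synthesis, desaturation, elongation, activation and beta-oxidation, chosen by name and with 1 entry each among the 32285 genes measured. They comprise 3 enzymes of synthesis and their regulator Srebf1, 5 desaturases, 6 elongases, 7 enzymes that activate acids to CoA esters, 4 members of the carnitine shuttle, 12 enzymes of beta-oxidation, 3 proteins that carry its electrons onwards, and 4 fatty acid binding proteins and receptors. RNA was measured in 6 bulk libraries of wild-type (WT) radial glial progenitors, the neural stem cells of the embryonic cortex, taken from E10.5 embryos, a stage before most cortical neurons are born. Dissociated cells were cultured for about 24 h with GSK2837808A, an inhibitor of lactate dehydrogenase (3 libraries, called GSK), or with an equal volume of its solvent DMSO (3 libraries, called DMSO). About 1000 living cells that carried CD133, a surface protein of progenitors, were sorted per library, and no gene was altered in either group. The labels state the dose as 100 mM, far above the usual range for a cell culture drug, so the concentration is uncertain. Whether replicates came from separate litters or culture wells is not given, so each p-value reflects only how far these libraries spread, which may be technical.

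Fatty acids are built in the cytosol from acetyl-CoA, which acetyl-CoA carboxylase turns into malonyl-CoA and fatty acid synthase joins into palmitate. Elongases and desaturases then lengthen the chain and insert double bonds, which sets the fluidity of membranes, and the genes of these enzymes are textbook targets of the sterol-responsive SREBP factors. For oxidation, an acyl-CoA passes into the mitochondrion on carnitine and is shortened in repeated rounds of dehydrogenation, hydration, dehydrogenation and cleavage. Malonyl-CoA, the building block of synthesis, blocks the entry step, so that the pathways are opposed in many tissues. Embryonic cortical progenitors are known to use both, synthesis for new membrane and oxidation in the upkeep of the progenitor pool.

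Promoters of 4 members are shown because these genes include both the rises and the fall with which the results below are most concerned, together with the central synthase. Fads2 and Acss2 rose in GSK libraries, Acss1 fell, and Fasn was not called. Each sequence runs 5′ to 3′ on the gene's strand, from 250 bases before to 50 bases after the RefSeq start in GRCm38.p6, and capitals mark CCAAT or GGGCGG on either strand. The windows are chr19:10101454-10101753 on the minus strand for Fads2, chr2:155517793-155518092 on the plus strand for Acss2, chr2:150668191-150668490 on the minus strand for Acss1 and chr11:120824498-120824797 on the minus strand for Fasn.
Fads2: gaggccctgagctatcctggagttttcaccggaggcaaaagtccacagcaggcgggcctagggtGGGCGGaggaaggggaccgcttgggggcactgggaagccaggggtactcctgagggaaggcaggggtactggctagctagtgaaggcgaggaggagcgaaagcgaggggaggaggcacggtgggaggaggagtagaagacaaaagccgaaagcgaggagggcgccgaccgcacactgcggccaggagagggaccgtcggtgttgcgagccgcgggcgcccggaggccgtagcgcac
Acss2: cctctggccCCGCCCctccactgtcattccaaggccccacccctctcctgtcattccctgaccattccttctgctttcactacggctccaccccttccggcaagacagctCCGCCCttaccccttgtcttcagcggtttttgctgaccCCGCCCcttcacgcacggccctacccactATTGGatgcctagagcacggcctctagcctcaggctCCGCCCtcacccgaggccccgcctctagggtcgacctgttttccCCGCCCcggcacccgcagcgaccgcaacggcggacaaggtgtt
Acss1: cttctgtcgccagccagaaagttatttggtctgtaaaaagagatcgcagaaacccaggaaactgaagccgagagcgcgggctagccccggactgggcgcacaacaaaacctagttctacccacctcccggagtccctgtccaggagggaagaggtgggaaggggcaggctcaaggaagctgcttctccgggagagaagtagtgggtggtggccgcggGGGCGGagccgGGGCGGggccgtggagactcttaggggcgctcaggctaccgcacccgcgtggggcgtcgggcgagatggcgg
Fasn: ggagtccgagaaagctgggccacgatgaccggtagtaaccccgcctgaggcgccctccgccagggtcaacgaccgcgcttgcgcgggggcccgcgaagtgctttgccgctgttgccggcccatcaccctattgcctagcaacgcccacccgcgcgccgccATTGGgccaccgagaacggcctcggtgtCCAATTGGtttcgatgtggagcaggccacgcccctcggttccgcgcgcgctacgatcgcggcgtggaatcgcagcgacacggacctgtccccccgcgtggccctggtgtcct
The table of RefSeq promoters matched 39 of the 45 members, with 46 windows. Acaa2, Decr1, Fabp5 and the desaturases Fads1, Scd1 and Scd2 had no window, so no motif was searched for them. CCAAT, read by the factor NF-Y, stood in 22 of these 46 windows, which belong to 20 genes, and 37.4% of all 32851 windows in the table held it. GGGCGG, the GC box of SP-family factors, stood in 33 of the 46 windows, which belong to 29 genes, and 35.7% of all windows held it. TCACNCCA, the core of the sterol regulatory element to which SREBP binds, was found for Acsl1 and Etfa and in 4.36% of all windows. The longer form of the element, with A before and C after these letters, was in no member's window and in 0.234% of all windows. CACGTG, an E-box, was found for Elovl4 and Elovl5 and in 7.15% of all windows, and the PPAR repeat, AGGTCA given again after a spacer of 1 base, was in no member's window and in 0.0396% of all. Both strands were searched, and the adjoining matches of CCAAT in Fasn, 1 on each strand, overlap. These are letter matches in short windows and say nothing about whether a factor binds. Genes with a CCAAT box included 6 that rose and 2 that fell, and genes with a GC box included 9 that rose and 3 that fell. Neither share of rises was above the 36.4% of all tested members that rose. That 36.4% also covers Scd1, Scd2, Fads1 and Decr1, which rose but had no window. The shares thus cover different genes, and nothing is concluded from the gap between them.

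The deposited values are normalised read counts, called reads below, and the whole reads behind them summed to between 7187089 and 10224348 per library. Of all 15073 genes tested, 36.1% were called at an adjusted p under 0.05, with 17.0% higher and 19.1% lower in GSK libraries. Markers of other cells moved with the treatment as well. Summed reads of 12 erythroid markers were 187163 to 277733 in GSK libraries and 2478 to 21074 in DMSO libraries, and 10 of 11 tested markers rose (3 or 4 without DMSO replicate 1 or without any single GSK library). Summed reads of 12 microglia and macrophage markers were 707 to 1634 in GSK libraries and 104 to 410 in DMSO libraries, with 7 of 12 called higher. Neuron markers summed to 21418 to 26650 in GSK libraries and 7326 to 14854 in DMSO libraries (5 higher and 1 lower of 12, and 8 higher without DMSO replicate 2), and intermediate progenitor markers to 3526 to 4466 in GSK libraries and 2319 to 2480 in DMSO libraries (6 higher of 8). The radial glial markers that define the labelled cell type were present in every library but summed to 11856 to 14846 in GSK libraries and 21105 to 22093 in DMSO libraries, with 7 of 10 lower. Mesenchyme and meninges markers gave 16446 to 25616 in GSK libraries and 26704 to 33697 in DMSO libraries (2 lower of 8, with 4 without GSK replicate 1 and 1 without DMSO replicate 3), and endothelial markers 53.1 to 84.2 in GSK libraries and 58.4 to 72.5 in DMSO libraries (0 of 3 called). No list had a marker at 0 in all 6 libraries. Genes that overlap ribosomal RNA took 23.8%, 26.1% and 23.2% of reads in GSK libraries, against 20.2%, 21.6% and 21.5% in DMSO libraries. Mitochondrially encoded genes took 0.953%, 0.892% and 1.08% in GSK libraries, against 0.697%, 0.519% and 0.528% in DMSO libraries. For both shares every GSK library was above every DMSO library (exact permutation test, two-sided p = 0.1, the smallest that 3 against 3 allows). The part of these markers and shares in the results below was not tested, and in bulk libraries fewer cells of a type cannot be told apart from less RNA per cell.

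Of the 45 fatty acid genes, 44 had a mean of at least 10 reads and were tested, and only Ppara fell under that filter. In GSK libraries 16 rose, 5 fell and 23 were not called, so that 36.4% of the tested members were higher and 11.4% lower, beside 17.0% and 19.1% of all genes. Their median log2 fold change was 0.19, beside 0.01 over all genes tested. The groups did not overlap for 24 of the 44 members, or 54.5%, with all GSK libraries above for 18 and below for 6, whereas the groups did not overlap for 47.2% of all tested genes. Without GSK replicate 2 the number of members called higher was 11, and without DMSO replicate 1 or 2 the number called lower was 3. The changes were uneven between roles. All 5 desaturases rose, whereas no enzyme that makes palmitate was called and 4 of 12 beta-oxidation enzymes rose. On the log2(value + 1) scale the called changes of at least 2-fold were those of Scd1, Fads2, Acsl4, Acss2 and Cpt1a, which rose, and Acss1, which fell. Together the 45 genes took 0.463%, 0.409% and 0.410% of reads in GSK replicates 1, 2 and 3, against 0.357%, 0.359% and 0.359% in DMSO replicates 1, 2 and 3.

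**Figure D1:**
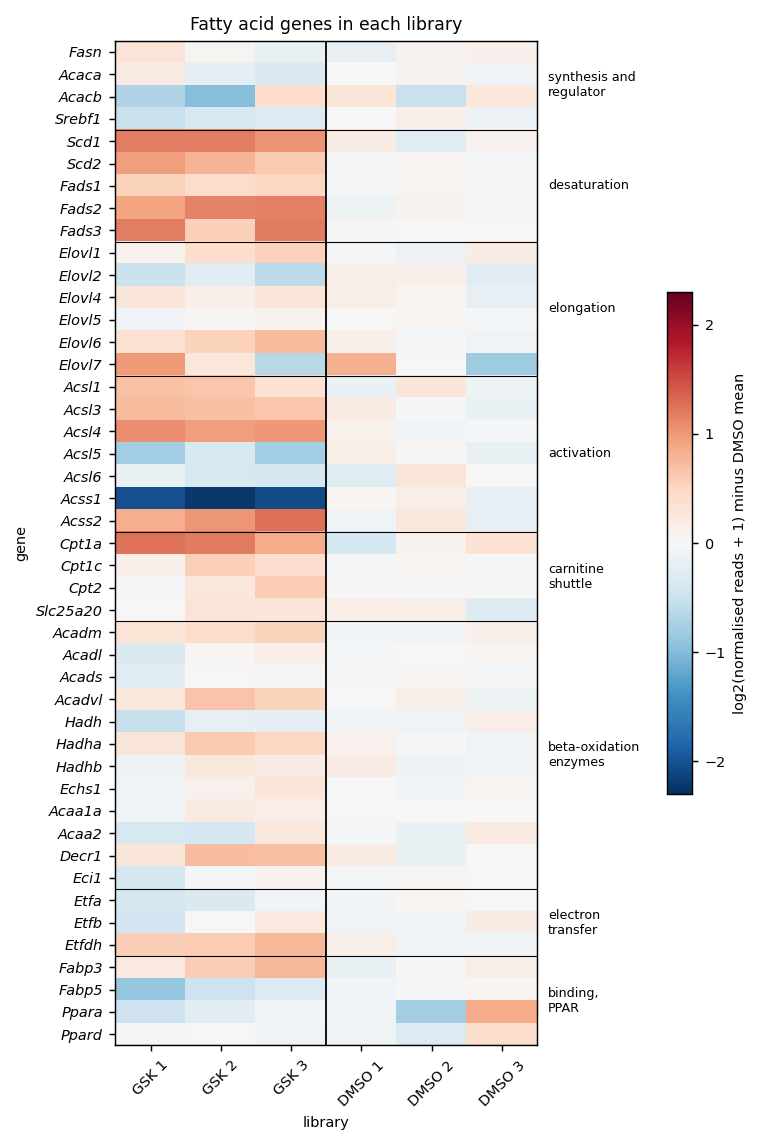
Heat map of the 45 genes (rows, by role) in the 3 GSK and 3 DMSO libraries (columns), coloured by log2(normalised reads + 1) minus the gene's DMSO mean. Red desaturase rows and the dark blue Acss1 row run across all GSK libraries, while several beta-oxidation rows are paler or bluer in GSK replicate 1 than in replicates 2 and 3.

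None of the 3 enzymes that make palmitate was called, and the regulator of the pathway was lower in GSK libraries. Fasn, the multifunctional synthase (chromosome 11, 120805846 to 120824547 in GRCm38), had 4820.2, 4117 and 3491 reads in GSK replicates 1, 2 and 3, against 3458, 4169.7 and 4266 in DMSO replicates 1, 2 and 3. GSK replicate 1 was the highest and the groups overlapped. Its log2 fold change was 0.06 with a 95% interval of -0.26 to 0.37 (limma, adjusted p = 0.8). Acaca, the cytosolic acetyl-CoA carboxylase, had 733 to 1058 reads in GSK libraries and 873 to 973 in DMSO libraries (log2 fold change -0.12, limma adjusted p = 0.541). It is less certain than the others because 52.6% of its 50-base words also occur in other genes, mainly Gm5182. It was called lower without GSK replicate 1 (log2 fold change -0.28, limma adjusted p = 0.0418, range over all settings 0.0418 to 0.956). Acacb, the mitochondrial carboxylase whose malonyl-CoA acts on the carnitine shuttle, was near the detection filter, with 11.0 to 29.7 reads in GSK libraries and 15.5 to 27.6 in DMSO libraries.

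Srebf1 encodes the SREBP factor best known for driving fatty acid genes. It had 454, 507 and 519 reads in GSK libraries, against 649, 698 and 590.1 in DMSO libraries. Every GSK library lay below every DMSO library. Means were 493 ± 34.6 in GSK libraries and 646 ± 53.9 in DMSO libraries (SD, n = 3 each), a log2 fold change of -0.39 ± 0.13 (SE; limma, adjusted p = 0.0242). The call was lost without DMSO replicate 1, without DMSO replicate 2 or without GSK replicate 2, with log2 fold changes of -0.38, -0.33 and -0.41 in that order. Over all settings its adjusted p ran between 0.00216 and 0.131. Srebf1 counts cannot show how much of its protein is cleaved and active, which is the regulated step.

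All 5 desaturases rose in GSK libraries, and each stayed called when any library was left out. Scd1 and Scd2, neighbours on chromosome 19 at 44394455 to 44407879 and 44293674 to 44306864, place the first double bond in saturated acids. Scd2, the main form of embryonic brain in mouse, had 10702, 9454 and 8367 reads in GSK libraries, against 5389.8, 5734 and 5454 in DMSO libraries. The lowest GSK library was well above the highest DMSO library. Its means were 9508 ± 1169 in GSK libraries and 5526 ± 183 in DMSO libraries, a log2 fold change of 0.78 ± 0.15 (limma, adjusted p = 0.000304). Scd1 had 993, 991 and 898 reads in GSK libraries, against 495, 363 and 471 in DMSO libraries. Again the groups were far apart, with a log2 fold change of 1.13 ± 0.14, the largest rise among the members (limma, adjusted p = 2.24e-06). Of the 50-base words of Scd1 and Scd2, 4.66% and 4.01% recur in other genes, mainly Scd3, which averaged 2.90 reads in GSK libraries and 1.22 in DMSO libraries.

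The polyunsaturated desaturases lie in a cluster on the same chromosome, with Fads3 at 10041569 to 10060110, Fads2 at 10062765 to 10101746 and Fads1 at 10182888 to 10196877. Fads2 performs the first desaturation of dietary polyunsaturated precursors. It had 3302, 3866 and 3907 reads in GSK libraries, against 1623, 1867 and 1794 in DMSO libraries. Its promoter, printed above, carries a single GC box at position -186 and no CCAAT. GSK libraries did not overlap DMSO libraries, with means of 3692 ± 338 in GSK libraries and 1761 ± 125 in DMSO libraries and a log2 fold change of 1.07 ± 0.13 (limma, adjusted p = 3.34e-06). Fads1, which acts later in the same route, had 2272, 2106 and 2185 reads in GSK libraries, against 1533, 1655 and 1552 in DMSO libraries. The groups did not overlap, and its log2 fold change of 0.47 ± 0.13 was the smallest of the 5 (limma, adjusted p = 0.00589). Fads3, a less abundant relative, had 129, 82.7 and 131 reads in GSK libraries, against 57.4, 55.8 and 55.8 in DMSO libraries. The DMSO libraries were nearly identical and all GSK libraries were above them (log2 fold change 0.97 ± 0.21, limma adjusted p = 0.00115). Summed over the 5 genes, desaturase reads were 17399, 16500 and 15487 in GSK libraries, against 9098, 9675 and 9327 in DMSO libraries.

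Per kilobase of exon, Scd2 was the most abundant desaturase in both groups, at 1740.0 ± 214 reads per kb in GSK libraries and 1011 ± 33.4 in DMSO libraries. Fads2 followed at 1120.5 ± 103 in GSK libraries and 535 ± 38.0 in DMSO libraries, then Fads1, Scd1 and Fads3. No neighbours in this order overlapped within a group. On the same scale the level of Fasn was 378 ± 60.7 in GSK libraries and 362 ± 40.4 in DMSO libraries. Those levels overlapped the levels of Fads1, which averaged 455 ± 17.3 in GSK libraries and 328 ± 13.6 in DMSO libraries. Per kilobase of the longest transcript, Fads1 was above Fasn without overlap in both groups. Fads1 then had 632 ± 24.1 in GSK libraries and 457 ± 19.0 in DMSO libraries, and Fasn 412 ± 66.2 and 394 ± 44.0. The levels of Fads1 and Fasn are thus not ordered here. The ratio of Scd2 to Scd1 per kb was 9.65, 8.55 and 8.34 in GSK libraries and averaged 11.4 ± 2.37 in DMSO libraries.

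**Figure D2:**
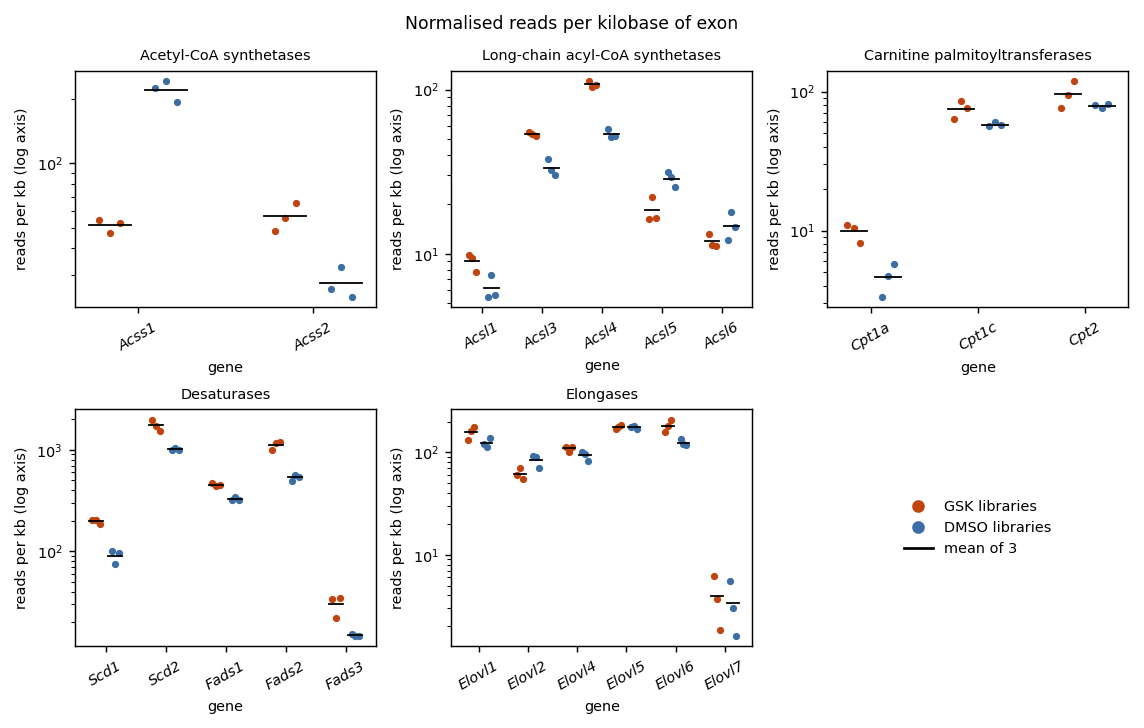
Normalised reads per kilobase of exon (log axes) for members of 5 enzyme families, with a point per library and a line at the mean of 3. All GSK points lie above all DMSO points for the 5 desaturases, whereas Acss1 and Acss2, and Acsl4 and Acsl5, moved opposite ways.

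Elongases add carbons to acyl-CoAs, and here 1 of 6 rose and 1 fell, a share near the 36.1% called among all genes. Elovl6, which lengthens palmitate before Scd enzymes desaturate it, had 1022, 1154 and 1327 reads in GSK libraries, against 869, 769.9 and 756 in DMSO libraries. The groups did not overlap, and means were 1168 ± 153 in GSK libraries and 798 ± 61.4 in DMSO libraries (log2 fold change 0.54 ± 0.13, limma adjusted p = 0.00306). Elovl2, which lengthens polyunsaturated acids, had 238, 282 and 219.6 reads in GSK libraries, against 365, 362 and 282 in DMSO libraries. GSK replicate 2 and DMSO replicate 3 touched, so the groups were not separate although the gene was called lower (log2 fold change -0.44 ± 0.15, limma adjusted p = 0.0286). That call was lost when DMSO replicate 1, DMSO replicate 2 or GSK replicate 3 was left out, with log2 fold changes of -0.38, -0.39 and -0.37 in that order, and its adjusted p over all settings ran between 0.0149 and 0.123. Elovl5, the elongase that works between Fads2 and Fads1, had 594 to 656 reads in GSK libraries and 599 to 635 in DMSO libraries. Its log2 fold change was 0.02, with a 95% interval of -0.24 to 0.28. Elovl1 had 359.6 to 487 reads in GSK libraries and 305 to 376 in DMSO libraries and was not called (log2 fold change 0.34, limma adjusted p = 0.0732). Leaving out GSK replicate 1 made it called higher (log2 fold change 0.47, limma adjusted p = 0.00548, range over all settings 0.00147 to 0.262). Elovl4, which makes very long chains, was not called (log2 fold change 0.23, limma adjusted p = 0.233), and Elovl7 had only 6.51 to 25.0 reads in any library. In GSK libraries Elovl6 had 182 reads per kb and Elovl5 178, against 124 for Elovl6 and 176 for Elovl5 in DMSO libraries, so these 2 differed beyond their spread only in DMSO libraries.

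Acids enter either pathway as CoA esters, and the 7 activating enzymes included both the largest fall and several of the largest rises. Of these 7, 4 were higher and 2 lower, beside 17.0% higher and 19.1% lower among all genes tested. Acss1 and Acss2 both turn free acetate into acetyl-CoA, Acss1 in the mitochondrial matrix and Acss2 in the cytosol and nucleus. Acss1 (chromosome 2, 150618105 to 150668500) had 224, 195 and 218 reads in GSK libraries, against 935, 1000.1 and 800.1 in DMSO libraries. Even the lowest DMSO library was far above every GSK library. Its means were 212 ± 15.4 in GSK libraries and 912 ± 102 in DMSO libraries, a log2 fold change of -2.09 ± 0.14 (limma, adjusted p = 5.43e-10). Acss2 (chromosome 2, 155517948 to 155585724) moved the other way, with 493, 562 and 666 reads in GSK libraries, against 262, 333 and 242 in DMSO libraries. The groups did not overlap, and means of 574 ± 87.4 in GSK libraries and 279 ± 47.6 in DMSO libraries gave a log2 fold change of 1.04 ± 0.15 (limma, adjusted p = 2.19e-05). Reads of Acss2 over reads of Acss1 were 2.20, 2.89 and 3.06 in GSK libraries, against 0.281, 0.332 and 0.302 in DMSO libraries, a comparison of ratios within a library and not of levels between the genes. The promoter of Acss2 carries 5 GC boxes and a CCAAT box at position -73, and that of Acss1 carries 2 GC boxes at -33 and -22 and no CCAAT.

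Among the long-chain acyl-CoA synthetases, Acsl4, which prefers arachidonic and related polyunsaturated acids, had 607, 563 and 575 reads in GSK libraries, against 310.2, 277 and 282 in DMSO libraries. Both groups were tight and separate, with a log2 fold change of 1.01 ± 0.13 (limma, adjusted p = 4.9e-06). Acsl3, an enzyme of the endoplasmic reticulum and lipid droplets, had 240.1, 234 and 227 reads in GSK libraries, against 165, 142 and 131 in DMSO libraries. All GSK libraries were higher (log2 fold change 0.68 ± 0.15, limma adjusted p = 0.00166). Acsl5, found on mitochondria and endoplasmic reticulum, had 79.7, 108 and 80.6 reads in GSK libraries, against 153, 142 and 124 in DMSO libraries. It was lower in every GSK library (log2 fold change -0.65 ± 0.18, limma adjusted p = 0.00912), and 8.31% of its exon bases overlap Zdhhc6 on the other strand, which averaged 733 reads in both groups. Acsl1, the form best known from tissues that burn fat, had 80.6 to 102 reads in GSK libraries and 57.4 to 77.3 in DMSO libraries. Its call was marginal (log2 fold change 0.55 ± 0.20, limma adjusted p = 0.0424): it was lost when DMSO replicate 1 or 3 or GSK replicate 1 or 2 was left out, with log2 fold changes of 0.47 to 0.50, and over all settings its adjusted p ran between 0.0109 and 0.14. Acsl6, a brain form, was not called at 110.4 to 131 reads in GSK libraries and 120.0 to 177 in DMSO libraries. Per kb, the order of the 5 was Acsl4, Acsl3, Acsl5, Acsl6 and Acsl1 in both groups, with Acsl4 at 108 ± 4.14 in GSK libraries and 53.6 ± 3.35 in DMSO libraries and Acsl1 at 8.98 ± 1.12 in GSK libraries and 6.14 ± 1.07 in DMSO libraries. Acsl3 and Acsl5 overlapped in DMSO libraries, at 33.5 ± 3.94 and 28.7 ± 3.05 reads per kb, and were apart in GSK libraries, where Acsl3 had 53.7 and Acsl5 18.4 reads per kb.

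**Figure D3:**
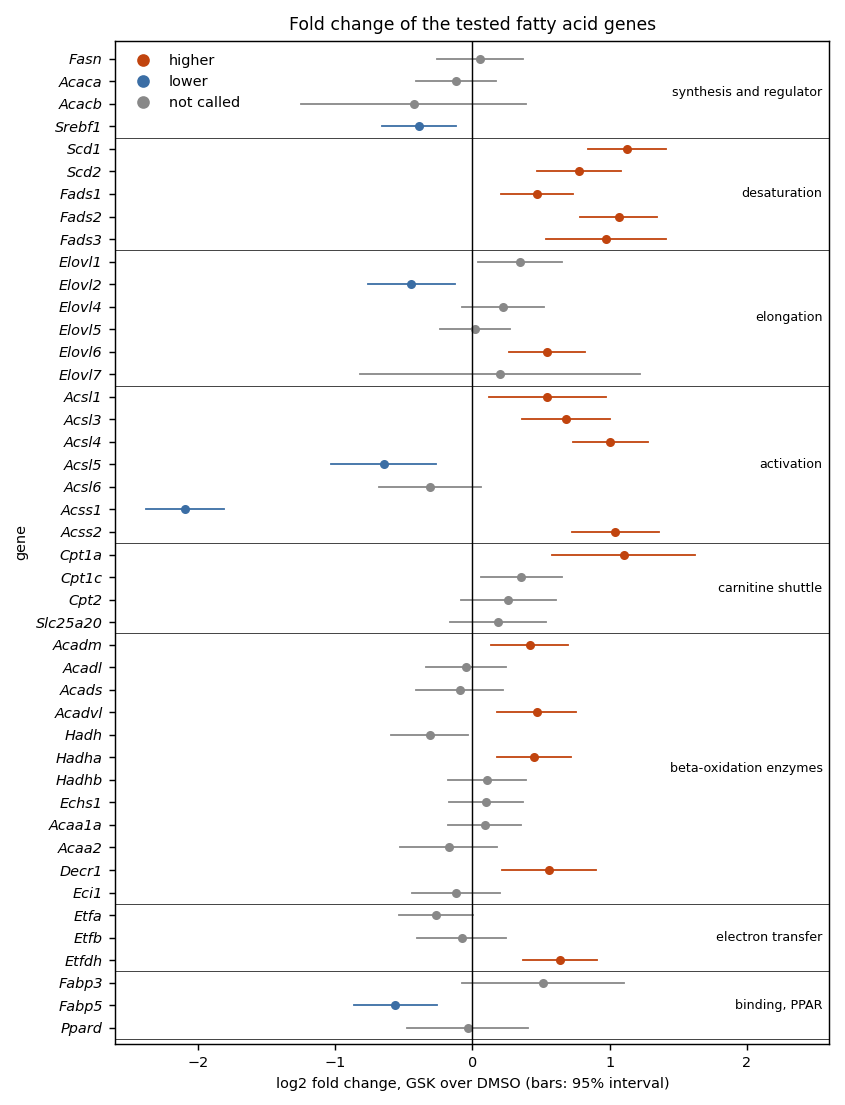
Log2 fold change of GSK over DMSO for the 44 tested genes, with bars for the 95% interval and colour for the limma call (16 higher, 5 lower, 23 not called). Desaturases and most activating enzymes lie right of 0, Acss1 stands alone at -2.09, and the beta-oxidation enzymes lie between -0.31 and 0.56.

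In the carnitine shuttle Cpt1a, the outer-membrane transferase that malonyl-CoA inhibits and the usual control point of oxidation, rose in GSK libraries at a low level. It had 83.1, 79.9 and 62.6 reads in GSK libraries, against 25.5, 36.1 and 43.7 in DMSO libraries. No DMSO library reached the lowest GSK library, and the log2 fold change was 1.10 ± 0.25 (limma, adjusted p = 0.00166). Cpt1c, a neuronal form in the endoplasmic reticulum with little or no transferase activity, had 354, 476 and 427 reads in GSK libraries, against 315, 339 and 319.7 in DMSO libraries. The groups did not overlap but the gene was not called (log2 fold change 0.36, 95% interval 0.06 to 0.65, limma adjusted p = 0.0558). Its call turned with the tool, the scaling and GSK replicate 1: it was called higher by edgeR (adjusted p = 0.0499), by DESeq2 (adjusted p = 0.0492) and without GSK replicate 1 (log2 fold change 0.47, limma adjusted p = 0.00421), with adjusted p between 0.000454 and 0.289 over all settings. Cpt2, the inner-membrane transferase, and Slc25a20, the carrier that exchanges acylcarnitine for carnitine, were not called, at log2 fold changes of 0.26 and 0.19 (limma, adjusted p = 0.229 and 0.405). Cpt2 was called higher without GSK replicate 1 (log2 fold change 0.42, limma adjusted p = 0.0301, range over all settings 0.0301 to 0.68). Per kb, Cpt1a was the lowest of these transferases in both groups, at 9.84 ± 1.44 in GSK libraries and 4.59 ± 1.20 in DMSO libraries, beside 74.7 ± 11.0 for Cpt1c in GSK libraries and 58.0 ± 2.28 in DMSO libraries.

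Of the 12 beta-oxidation enzymes 4 rose, none fell and 8 were not called, with a median log2 fold change of 0.09 beside 0.01 over all genes. The share called was near the 36.1% of all genes, of which 17.0% were higher and 19.1% lower. The median was 0.19 without GSK replicate 1 and 0.03 without GSK replicate 2 or without GSK replicate 3. The count rested on single libraries: without GSK replicate 2 it was 0 of 12 higher, and without DMSO replicate 2 it was 2 of 12. Acadvl, the very-long-chain acyl-CoA dehydrogenase, had 488, 649 and 585 reads in GSK libraries, against 409, 450.2 and 380.1 in DMSO libraries. The groups did not overlap (log2 fold change 0.47 ± 0.14, limma adjusted p = 0.0123), but the call was lost without DMSO replicate 3 or GSK replicate 2, with log2 fold changes of 0.41 and 0.37 and an adjusted p of up to 0.106. Because 42.9% of its exon bases lie opposite Dvl2, and Smart-seq2 reads carry no strand, its reads are uncertain. Dvl2 averaged 571 ± 47.4 reads in GSK libraries and 511 ± 41.7 in DMSO libraries and was not called (log2 fold change 0.16, limma adjusted p = 0.364).

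Hadha and Hadhb encode the partner subunits of the mitochondrial trifunctional protein and sit head to head on chromosome 5. Hadha had 874, 1092 and 1005 reads in GSK libraries, against 773, 711 and 685 in DMSO libraries. All GSK libraries were higher (log2 fold change 0.45 ± 0.13, limma adjusted p = 0.00976), though not past the threshold without GSK replicate 2 (log2 fold change 0.38, adjusted p = 0.0875). Hadhb had 642, 823 and 794 reads in GSK libraries, against 787, 639 and 665 in DMSO libraries, and the groups overlapped. It was not called in any setting (log2 fold change 0.11, limma adjusted p = 0.57), and the difference between the subunits was not tested.

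Decr1, which reduces the double bonds that block oxidation of unsaturated acids, had 191, 256 and 253 reads in GSK libraries, against 175, 140.1 and 156 in DMSO libraries. Its log2 fold change of 0.56 ± 0.16 was the largest of the 12 (limma, adjusted p = 0.011), and it fell short without DMSO replicate 2 or GSK replicate 2 (log2 fold changes 0.48 and 0.49, adjusted p up to 0.0708). Acadm, the medium-chain dehydrogenase, had 396, 427 and 454 reads in GSK libraries, against 306, 305 and 346 in DMSO libraries. GSK libraries were all higher (log2 fold change 0.42 ± 0.13, limma adjusted p = 0.0203), yet the call was lost when DMSO replicate 1 or 2 or GSK replicate 2 or 3 was left out, with log2 fold changes of 0.37 to 0.41 and an adjusted p of up to 0.087. Hadh, the short-chain hydroxyacyl-CoA dehydrogenase, was the only enzyme of the 12 with every GSK library below every DMSO library. It had 709, 893 and 876 reads in GSK libraries, against 976, 961 and 1133 in DMSO libraries, and was not called by limma (log2 fold change -0.31, adjusted p = 0.073). With edgeR (adjusted p = 0.049) and with libraries scaled to equal totals (limma, adjusted p = 0.0162) it was called lower, and over all settings its adjusted p ran between 0.0162 and 0.26. The other uncalled enzymes were the dehydrogenases Acadl and Acads, the hydratase Echs1, the thiolases Acaa1a (peroxisomal) and Acaa2 (mitochondrial) and the isomerase Eci1, with log2 fold changes between -0.17 and 0.10. Acaa1a shares 16.2% of its 50-base words with other genes, mainly Acaa1b.

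Electrons from acyl-CoA dehydrogenases pass through the Etfa and Etfb heterodimer to the membrane oxidoreductase Etfdh and on to ubiquinone. Etfdh had 676, 688 and 778 reads in GSK libraries, against 506, 432 and 439 in DMSO libraries. The groups were well apart, with means of 714 ± 55.6 in GSK libraries and 459 ± 40.7 in DMSO libraries, a log2 fold change of 0.64 ± 0.13 (limma, adjusted p = 0.000679) and a call in every setting. Etfa had 669, 701 and 837 reads in GSK libraries, against 842, 911 and 887 in DMSO libraries. It was lower in every GSK library without being called (log2 fold change -0.26, limma adjusted p = 0.116), and it was called lower without GSK replicate 3 (log2 fold change -0.36, adjusted p = 0.0397, range over all settings 0.012 to 0.314). Etfb was not called (log2 fold change -0.08, limma adjusted p = 0.728). Of its 50-base words 67.3% recur in other genes, mainly the readthrough gene Gm45233, so its count is uncertain.

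Fabp5 carries fatty acids in the cytosol and to nuclear PPAR receptors. It had 1105, 1479 and 1647 reads in GSK libraries, against 1962, 2097 and 2112 in DMSO libraries. Every GSK library was lower, and means were 1410.3 ± 277 in GSK libraries and 2057 ± 82.8 in DMSO libraries (log2 fold change -0.56 ± 0.14, limma adjusted p = 0.0046). Fabp3 was low, with 29.6, 37.7 and 43.5 reads in GSK libraries, against 22.3, 25.8 and 27.9 in DMSO libraries, and was not called (log2 fold change 0.52, limma adjusted p = 0.164). Of its 50-base words 29.2% recur elsewhere, mainly in Fabp3-ps1. In addition, 9.84% of its exon bases overlap Zcchc17 on the other strand, whose mean was 1280% of the mean of Fabp3. The count of Fabp3 is thus uncertain. Ppara, the receptor that switches on oxidation genes in liver, had 4.55, 5.51 and 6.37 reads in GSK libraries, against 6.37, 3.44 and 13.0 in DMSO libraries, too few to test. Ppard, the more widespread receptor, had 77.4, 79.9 and 75.3 reads in GSK libraries, against 74.4, 63.6 and 106 in DMSO libraries, which overlapped (log2 fold change -0.03, 95% interval -0.48 to 0.41).

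Synthesis and desaturation were then set against beta-oxidation within each library. The mean log2 level of the 8 enzymes of synthesis and desaturation was 9.92, 9.72 and 9.89 in GSK libraries, against 9.36, 9.30 and 9.40 in DMSO libraries. Every GSK library was above every DMSO library. This rise lay with the 5 desaturases, since Fasn, Acaca and Acacb had log2 fold changes of 0.06, -0.12 and -0.43 and were not called. The mean log2 level of the 12 beta-oxidation enzymes was 8.72, 9.00 and 9.06 in GSK libraries, against 8.82, 8.77 and 8.83 in DMSO libraries, so GSK replicate 1 was the lowest of all and the other GSK libraries were the highest. The difference between these levels was 1.20, 0.71 and 0.83 in GSK libraries, against 0.54, 0.53 and 0.57 in DMSO libraries. Means were 0.92 ± 0.25 in GSK libraries and 0.55 ± 0.02 in DMSO libraries, which differ by 0.37. GSK replicate 1 weighed most on this value, which was 0.23 without it. With the median of each set in place of the mean it was 0.08. The contrast of medians was 1.76, 1.26 and 1.24 in GSK libraries, against 1.35, 1.37 and 1.30 in DMSO libraries. GSK replicates 2 and 3 then lay below every DMSO library. With the elongases and Srebf1 added to the first set the value was 0.17, and the groups overlapped. The contrast was then 0.41, 0.024 and 0.015 in GSK libraries, against 0.046, -0.0075 and -0.11 in DMSO libraries. No p is given for these scores because the genes were chosen with earlier results known. Within the synthetic side, summed reads of the 8 enzymes were 23291, 21418 and 19740 in GSK libraries, against 13509, 14833 and 14493 in DMSO libraries, and most of the gap lay in Scd2 and Fads2.

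**Figure D4:**
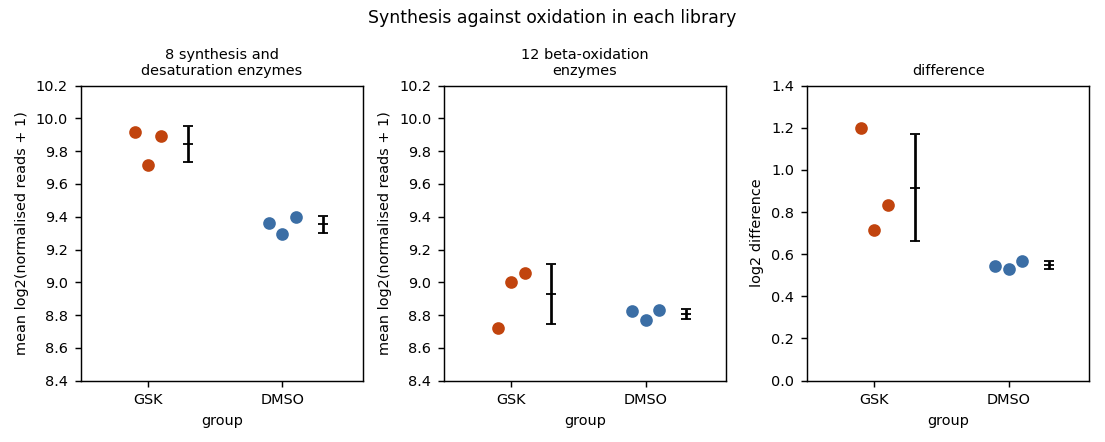
Mean log2(normalised reads + 1) of the 8 synthesis and desaturation enzymes (left), of the 12 beta-oxidation enzymes (middle) and their difference (right), with a point per library and the mean ± SD of 3 beside it. GSK libraries stand above DMSO libraries on the left and right, whereas in the middle GSK replicate 1 is below all DMSO libraries.

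The neighbouring steps of the same pathways were counted from lists of related genes. For comparison, 36.1% of all genes tested were called, 17.0% higher and 19.1% lower. Of 13 tested genes that supply or complete synthesis, 5 rose and 1 fell (median log2 fold change 0.34), but 2 rose without GSK replicate 2 or without GSK replicate 3, and 3 rose without DMSO replicate 1 or without DMSO replicate 2. Tecr, which completes the elongation cycle, rose by 0.73 (limma, adjusted p = 0.000532), whereas Acly, which makes cytosolic acetyl-CoA from citrate, had 5858, 4508 and 3914 reads in GSK libraries, against 3807, 4267 and 3724 in DMSO libraries, and was not called (log2 fold change 0.26, limma adjusted p = 0.206). Of 10 genes that control SREBP processing, 2 rose and 1 fell (median -0.17), with 1 rise when DMSO replicate 2 or 3 or GSK replicate 2 was left out and 4 falls without GSK replicate 1. The median was -0.06 without GSK replicate 3. The share called in this list was near that of all genes. Insig1, which holds SREBP in the endoplasmic reticulum and is itself an SREBP target, had 2869, 2839 and 2755 reads in GSK libraries, against 1132, 1157 and 1083 in DMSO libraries (log2 fold change 1.33, limma adjusted p = 6.79e-08). Scap, the SREBP escort, fell by 0.64 on the log2 scale (limma, adjusted p = 0.00159), and Srebf2 was not called (log2 fold change 0.10, limma adjusted p = 0.608). The sterol branch that shares these factors had 22 of 24 genes higher and none lower, with a median of 0.98, about the median of the desaturases, 0.97.

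On the side of oxidation, 5 of 18 other mitochondrial genes rose and 1 fell (median 0.13), a share called near the 36.1% of all genes. Without DMSO replicate 2 or GSK replicate 2, 3 rose, and without GSK replicate 3 the median was -0.01 and 2 fell. Oxct1, which lets cells use ketone bodies, fell by 0.51 on the log2 scale (limma, adjusted p = 0.00298). Of 20 peroxisomal genes 10 rose and none fell (median 0.40), and 6 rose without GSK replicate 2. They included Phyh and Hacl1, which act in the alpha-oxidation of branched chains (log2 fold changes 0.74 and 0.97). Of 15 tested PPAR targets and partners 5 rose and 1 fell (median 0.25), and without GSK replicate 1 the median was 0.09 and 2 fell. Ucp2, a mitochondrial carrier, rose by 2.21 (limma, adjusted p = 6.67e-10), and the co-activator Ppargc1a fell by 1.15 on the log2 scale (limma, adjusted p = 0.00339). Among 17 acyl-CoA handling and uptake genes 5 rose and 4 fell (median 0.18), and 2 rose without GSK replicate 2 and 3 without DMSO replicate 2. The median was 0.08 without GSK replicate 2 and 0.10 without DMSO replicate 1. The falls in this list were large: Acsbg1, an acyl-CoA synthetase of brain glia, had 13.7, 23.0 and 18.0 reads in GSK libraries, against 276, 335 and 246 in DMSO libraries (log2 fold change -3.92, limma adjusted p = 8.99e-11), and the radial glial binding protein Fabp7 fell by 3.78 on the log2 scale (limma, adjusted p = 2.74e-12). Fabp7 is also in the radial glial marker list, whose reads were lower in GSK libraries.

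**Figure D5:**
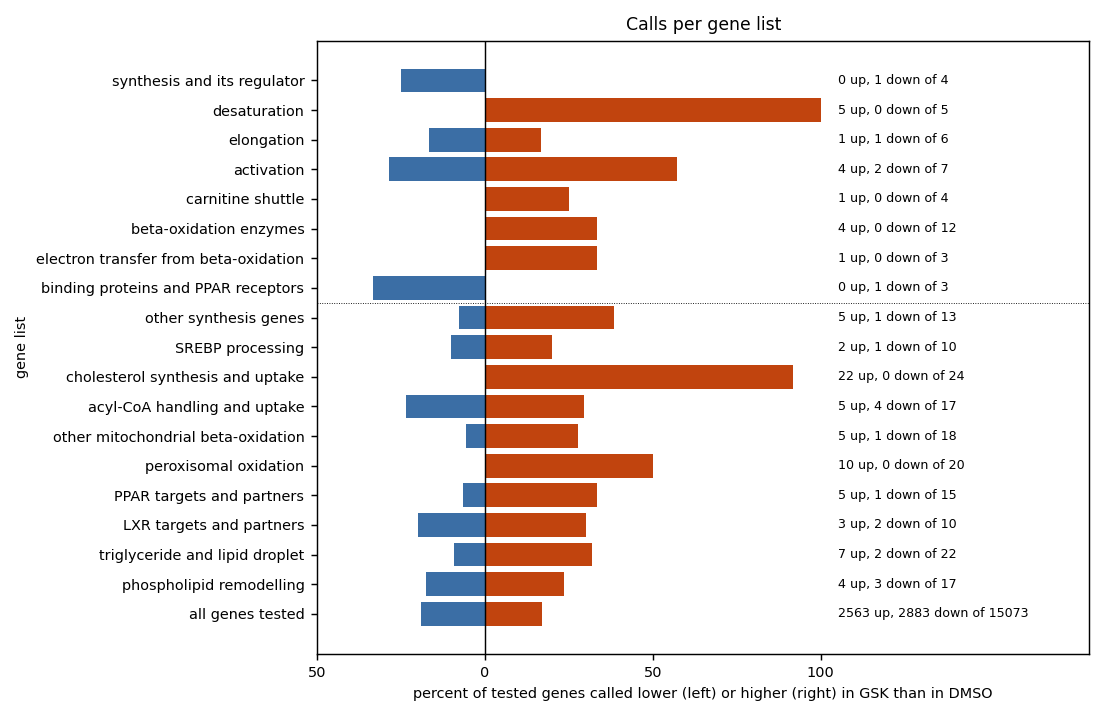
Percent of tested genes called higher (right, red) or lower (left, blue) in GSK than in DMSO libraries for the 8 roles of the 45 genes (above the dotted line) and for related lists (below it), with counts at the right. Desaturation (5 of 5 higher) and cholesterol synthesis (22 of 24 higher) have the longest red bars.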

How the data were processed

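The authors deposited a table of signal values that are normalised read counts per gene and library, made from Smart-seq2 libraries, per the labels' protocols. The submitters' processing notes name STAR and DESeq and the builds GRCm38 and mm10, without role or version. For the read counter and strand setting, the sources used here give nothing. All nonzero values (100%) came out as whole multiples of the library's smallest value within 0.01, which recovers whole reads that were also tested as counts.

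Values repeated over 118098 transcript rows were reduced to 1 per gene. The main test was limma 3.58.1 (R 4.3.3) with trended and robust priors on log2(value + 1). It used group alone and took in 15073 genes whose mean reached 10, with Benjamini-Hochberg adjustment over all of them at 0.05. Fold changes are on this scale, which understates low genes. Alternatives included edgeR 4.0.16 on the recovered reads (2501 genes higher and 2996 lower, beside 2563 and 2883 by limma), DESeq2 1.42.0, other scalings and filters, and leaving out each library. Levels per kilobase use union exons of GENCODE M21 on GRCm38. Shared sequence was measured as 50-base words. All members are accounted for, up to 4 called members a role by largest change are given in full with Srebf1, Fasn, Scd1, Scd2, Fads2, Cpt1a, Cpt1c, Acadvl, Ppara and Ppard, and further genes were named after their values were seen. Members and lists were chosen with earlier results of these data known.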

Additional observations from a re-analysis of the deposited data

How the results depend on the processing

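Of the 21 members called, 14 were called in every setting in which they were tested, which was 18 settings, or 17 for Fads3 and Cpt1a, whose means are under 100. These were the 5 desaturases, Acss1, Acss2, Acsl3, Acsl4, Acsl5, Cpt1a, Elovl6, Etfdh and Fabp5. The other 7 lost the call in at least 1 setting, 7 members that were not called gained it in at least 1, and no called member changed sign. Leaving out a library gave 11 to 18 members higher and 3 to 6 lower, and an adjusted p under 0.01 gave 12 higher and 3 lower. Over all genes, array weights gave 3864 higher and an adjusted p under 0.01 gave 1562 higher, against 2563. The contrast of synthesis with oxidation, 0.37, was 0.080 with medians, 0.17 with elongases and Srebf1 added (a choice made after seeing the data) and 0.23 to 0.47 with a library left out. With medians, and with elongases and Srebf1 added, the groups overlapped. The ratio of Acss2 to Acss1 per kb in GSK libraries was 1.10 with union exons and 2.72 with the longest transcript, so the levels of these genes are not ordered here. Whether Fads1 overlapped Fasn, and Acsl5 overlapped Acsl6, also depended on the length used. The cause of these shifts was not tested.

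Same-numbered libraries did not deviate together (correlations of 0.013, -0.024 and 0.053). With 3 libraries a group, this cannot show whether same-numbered libraries shared a litter, culture or sort. A fit with the replicate number as a block called 16 members higher and 5 lower, and 2662 genes higher and 2980 lower over all genes. At totals of 7187089 to 10224348 reads, genes near 10 reads such as Elovl7 and Acacb have wide intervals, and a missing call there does not show that they did not change. Ppara was too low to test.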

Other observations

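The share called among triglyceride and phospholipid genes, which use fatty acids downstream, lay near the 36.1% of all tested genes. Of 22 tested genes of triglyceride synthesis and lipid droplets, 7 rose and 2 fell in GSK libraries, with a median log2 fold change of 0.25. Lpin1, a phosphatidate phosphatase of triglyceride synthesis, rose by 1.80 on the log2 scale (limma, adjusted p = 2.82e-08), whereas its relative Lpin2 fell by 0.87 (limma, adjusted p = 7.87e-05). Abhd5, the activator of the droplet lipase, and the droplet coat protein Plin2 rose by 0.85 and 0.64 (limma, adjusted p = 0.000138 and 0.000597).

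Of 17 phospholipid genes 4 rose and 3 fell, with a median of 0.10 (0.05 without DMSO replicate 1), and 1 fell when any single DMSO library was left out. Pcyt2, of phosphatidylethanolamine synthesis, rose by 0.87 (limma, adjusted p = 2.04e-05), Cept1, which completes both main phospholipids, rose by 0.80 (limma, adjusted p = 0.0002), and Lpcat3, which inserts polyunsaturated chains, rose by 0.61 (limma, adjusted p = 0.00129). Lpcat4 fell by 1.06 on the log2 scale (limma, adjusted p = 0.00256). Of 10 LXR targets and partners 3 rose and 2 fell, beside 17.0% higher and 19.1% lower among all genes tested, and 0 fell without GSK replicate 2. They included the sterol exporters Abcg1 and Abca1, which rose by 0.74 and 0.68 (limma, adjusted p = 0.00561 and 0.024).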
